A study of Mus musculus with 9 samples.

Results

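The CD4-titled deep cervical library was compared with the deep cervical libraries that carry no CD4 in their titles. Its members were the cell barcodes with exactly 1 productive T-cell receptor beta chain (TRB) and 1 or 2 productive alpha chains (TRA). There were 4930 such cells, of 23051 in the 9 tables of the series. The libraries set beside it were deep cervical lymph node (dCLN) WT, with 1227 cells, and dCLN 5xFAD, with 2742. All came from female mice aged 10 to 11 months whose nodes were dissociated and sequenced for receptor transcripts with a 10x Genomics droplet kit. WT mice are wild type. 5xFAD mice carry mutant human amyloid precursor protein and presenilin transgenes driven by the neuronal Thy1 promoter, as a model of amyloid deposition.

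The CD4-titled library is labelled WT, but a second CD4-titled table labelled 5xFAD held the same cells. With nonproductive contigs included the tables had 6905 and 6915 barcodes, of which 6829 were shared, with 12709 shared combinations of barcode and junction. They were counted as 1 library, and its genotype was not used. With dCLN WT and dCLN 5xFAD the CD4-titled library shared 15 and 46 barcodes and 0 combinations of barcode and junction. The labels do not say how CD4 cells were obtained or how many animals stood behind a library, and the tables hold no CD4 or CD8 measurement, so the CD4 of the title could not be checked. Each group was 1 library. There was therefore no replicate and no test, and the exact Clopper-Pearson 95% intervals given in parentheses cover counting error only. As a scale for differences between libraries, the lowest and highest values of the 6 libraries without CD4 in their titles are given (dCLN, superficial cervical nodes or sCLN, and inguinal nodes or iLN, each WT and 5xFAD). A separate library, titled as a mix of these 3 node types and both genotypes and also without CD4, is called the mixed library.

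T cells assemble each receptor chain from V, D and J gene segments for TRB and from V and J segments for TRA. The joint, or junction, runs from a conserved cysteine to a conserved position of the J segment, such as phenylalanine or tryptophan. It includes bases that terminal transferase adds without a template. It forms the part of the receptor that lies over the presented peptide. CD4 T cells read peptides on MHC class II and CD8 T cells on class I, and V gene use and junction charge are known to differ between these lineages. TRA segments lie on chromosome 14 and TRB segments on chromosome 6. A clonotype below is a distinct pair of TRB and TRA chains, by V gene (TRAV by subgroup), J gene and junction nucleotides. The CD4-titled library held 4792 clonotypes, dCLN WT 1173 and dCLN 5xFAD 2726.

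The largest clones of the CD4-titled library are shown because 2 receptors among them were each encoded by 2 nucleotide clonotypes. The largest clone held 11 cells, or 0.223% of the cells (0.111 to 0.399). It joined TRBV5 to TRBJ2-2 and TRAV5 to TRAJ40. Capitals mark bases between the ends of the V and J segments, where no D segment was called.
TRBV5-TRBJ2-2, 11 cells: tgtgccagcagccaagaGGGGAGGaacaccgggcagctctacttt
TRAV5-TRAJ40, 11 cells: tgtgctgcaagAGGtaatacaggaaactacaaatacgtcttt

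The next clone, of 6 cells, joined TRBV5 to TRBJ1-4 and TRAV4 to TRAJ48. A separate clone of 3 cells used the same 4 segments and encoded the same amino acids in both chains with 1 base different in each chain. Capitals mark the bases that differ.
TRB, 6 cells: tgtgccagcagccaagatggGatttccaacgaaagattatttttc
TRB, 3 cells: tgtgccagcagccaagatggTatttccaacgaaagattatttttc
TRA, 6 cells: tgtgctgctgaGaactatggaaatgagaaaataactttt
TRA, 3 cells: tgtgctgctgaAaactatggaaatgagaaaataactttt

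A further pair of clones, of 5 and 4 cells, joined TRBV19 to TRBJ1-3 and TRAV3 to TRAJ26. Both encoded the same amino acids in each chain. Their TRB junctions differed at 2 bases. Their TRA junctions were identical, but the V regions before them differed at 4 bases and were called as TRAV3-3 in the 5-cell clone and as TRAV3D-3 or TRAV3N-3 in the other, near-identical copies of a duplicated gene.
TRB, 5 cells: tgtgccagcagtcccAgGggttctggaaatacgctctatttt
TRB, 4 cells: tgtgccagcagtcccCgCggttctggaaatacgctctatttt
TRA, both clones: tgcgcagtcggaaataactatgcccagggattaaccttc

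These were the only receptors of the CD4-titled library in which the same amino acids of both chains, with the same V and J segments, were encoded by more than 1 nucleotide clonotype: 2 pairs among 4792 clonotypes. dCLN WT held 1 such pair, of single cells, and dCLN 5xFAD held 0. The cells of the dCLN WT pair had identical TRB junctions and TRA V regions and differed at 1 base of the TRA junction. Per 1000000 pairs of clonotypes compared, the rate was 0.174 in the CD4-titled library (Poisson 95% interval 0.0211 to 0.629), 1.45 in dCLN WT (0.0368 to 8.11) and 0 in dCLN 5xFAD (0 to 0.993). The 3 intervals overlap. For the TRB chain alone the CD4-titled library held 36 pairs with equal amino acids and unequal nucleotides, or 3.14 at the same scale (2.20 to 4.34), against 1.45 (0.0368 to 8.11) and 1.88 (0.758 to 3.88). For TRA it held 173, or 15.1 (12.9 to 17.5), against 17.5 (9.02 to 30.5) and 20.5 (16.1 to 25.6). The intervals overlap for each chain too. The convergent clones of the CD4-titled library had 3 to 6 cells each, while the pair in dCLN WT was of single cells. The TRB amino acids of the 6-cell clone also occurred in a cell with another nucleotide version and TRAV14-TRAJ37, and in a cell with the 6-cell clone's TRB nucleotides and TRAV9-TRAJ43.

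Clones of the CD4-titled library reached larger sizes than those of the dCLN libraries, in a library of more cells. Of its 95 clones of 2 or more cells, 23 held 3 or more and 9 held 4 or more. dCLN WT had 52 clones of 2 or more, of which 2 held 3 cells and none more. dCLN 5xFAD had 16, all of 2 cells. The other clones of 4 or 5 cells in the CD4-titled library were TRBV23-TRBJ1-4 with TRAV7-TRAJ26 (5 cells), TRBV13-3-TRBJ1-5 with TRAV6-TRAJ32, TRBV13-3-TRBJ2-7 with TRAV4-TRAJ7, TRBV19-TRBJ2-4 with TRAV10-TRAJ31 and TRBV2-TRBJ2-5 with TRAV9-TRAJ37 (4 cells each). The largest clones of dCLN WT both used TRBV26, joined to TRBJ1-1 with TRAV6-TRAJ31 and to TRBJ1-4 with TRAV13-TRAJ49. Within clones of the CD4-titled library no pair of barcodes was closer than 7 of 16 bases, with a median of 12, against at least 8 in both dCLN libraries, so members of a clone were not barcodes 1 read error apart.

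By share of cells, the CD4-titled library lay between the dCLN libraries. Cells in clones of 2 or more made up 4.73% (4.15 to 5.36), against 8.64% in dCLN WT (7.13 to 10.4) and 1.17% in dCLN 5xFAD (0.800 to 1.64). A larger sample holds more repeats, so each library was thinned to 1227 cells, as a mean of 100 draws. The shares were then 1.69% in the CD4-titled library, 8.64% in dCLN WT and 0.592% in dCLN 5xFAD. At equal cell number the CD4-titled library thus stayed below dCLN WT and above dCLN 5xFAD. Clones of 2 or more had shorter TRA junctions than single cells, at 13.3 against 13.6 amino acids (SD 1.30 and 1.30 over clonotypes), as in dCLN WT at 12.9 against 13.4 (SD 1.38 and 1.43). In dCLN 5xFAD the order was the other way, at 13.56 against 13.52 (SD 1.31 and 1.36), with 16 clones.

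No complete receptor was common to the CD4-titled library and either dCLN library. By nucleotides or by amino acids of both chains, 0 of 4792 clonotypes were found in dCLN WT and 0 in dCLN 5xFAD. By amino acids 1 was found in superficial cervical 5xFAD, of the other libraries without CD4 in their titles, the mixed one included. TRB chains with equal amino acids and segments numbered 14 with dCLN WT, which is 0.296% of those of the CD4-titled library and 1.20% of those of dCLN WT. With dCLN 5xFAD they numbered 34, or 0.720% and 1.25%. TRA chains were shared far more often, 103 with dCLN WT (2.30% and 8.99%) and 223 with dCLN 5xFAD (4.98% and 8.60%). Measured against the dCLN libraries, which differ in size, the shares were alike for both genotypes.

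Chain pairing was more complete in the CD4-titled library. Of its 6901 barcodes with a productive chain, 71.4% (70.4 to 72.5) were paired cells. In dCLN WT 54.1% of 2269 barcodes were paired (52.0 to 56.1) and in dCLN 5xFAD 54.2% of 5059 (52.8 to 55.6). The 6 untitled libraries ran from 41.5% to 62.7%, all below, whereas the mixed library stood at 70.9%. Barcodes with TRB alone were fewer, at 19.8% (18.8 to 20.7) against 34.6% (32.6 to 36.6) and 31.9% (30.6 to 33.2). Barcodes with TRA alone were also fewer, at 3.96% against 8.51% and 9.88%. With TRB present, a TRA chain was found in 79.4% (78.4 to 80.4) against 62.2% (60.1 to 64.3) and 64.6% (63.2 to 66.0).

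**Figure D1:**
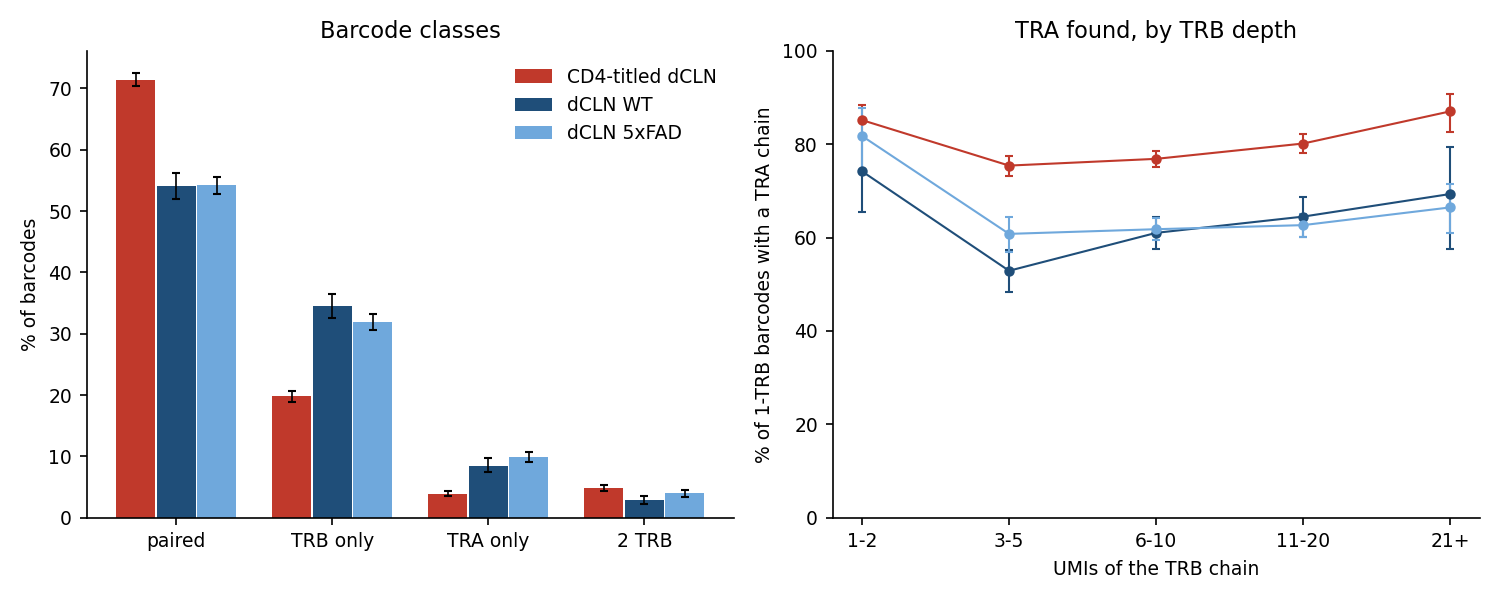
Left: percent of barcodes that were paired, had TRB alone, had TRA alone or had 2 TRB chains. Right: percent of barcodes with 1 TRB chain in which a TRA chain was found, by unique molecular identifiers (UMIs) of the TRB chain; points or bars are single libraries and error bars exact 95% counting intervals. The CD4-titled library lies above both dCLN libraries from 3 to 5 UMIs upwards with no overlap of intervals, for example at 75.4% against 52.9% and 60.8%.

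The gap was present at equal TRB depth. UMIs count the captured molecules of a chain. Among barcodes whose TRB chain had 6 to 10 UMIs, a TRA chain was found in 76.9% of the CD4-titled library (75.1 to 78.5), 61.0% of dCLN WT (57.5 to 64.4) and 61.8% of dCLN 5xFAD (59.4 to 64.2). At 21 UMIs or more the values were 87.0%, 69.3% and 66.5%. At 1 or 2 UMIs they were 85.2% (81.3 to 88.5), 74.2% (65.6 to 81.6) and 81.8% (74.3 to 87.8), and the interval of the CD4-titled library overlaps both others. The TRA chains found were themselves shallower in the CD4-titled library, with a median of 4 UMIs against 5 and 6. Reads per UMI were higher, with a median of 434 against 273 and 144. With chains of at least 2 UMIs only, the pairing gap to the mean of the dCLN libraries fell from 17.3 to 11.0 percentage points. The part of sequencing depth in the pairing gap was not tested further.

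A second productive TRA chain, which T cells can keep because TRA rearrangement is not shut down on the other chromosome, was also found more often. It was present in 430 of 4930 paired cells, 8.72% (7.95 to 9.54), compared with 4.48% for dCLN WT (3.39 to 5.80) and 6.38% for dCLN 5xFAD (5.50 to 7.36). The untitled libraries ran from 3.21% to 7.997% and the mixed library stood at 9.50%. The second chain had a median of 3 UMIs in the CD4-titled library and 3 and 4 in the dCLN libraries, and had 1 UMI in 10.5%, 7.27% and 4.00% of such cells. Barcodes with 2 TRB chains, which include doublets, made up 4.85% (4.36 to 5.39) against 2.86% (2.22 to 3.64) and 3.99% (3.47 to 4.57). No doublet caller was run, and the part of doublets in the second TRA chains was not tested.

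TRA junctions carried more positive charge in the CD4-titled library. Net charge was counted as lysines and arginines minus aspartates and glutamates of the junction, over clonotypes. The mean was 0.765 (SD 0.867 over 4792 clonotypes), against 0.483 in dCLN WT (SD 0.940, 1173) and 0.634 in dCLN 5xFAD (SD 0.926, 2726). The 6 untitled libraries ran from 0.483 to 0.637 and the mixed library stood at 0.573, so the CD4-titled library was above all 7. Positive TRA junctions made up 64.9% (63.5 to 66.2), against 51.9% (49.01 to 54.8) and 57.9% (56.0 to 59.8). Negative ones made up 6.72% (6.03 to 7.47), against 13.4% (11.5 to 15.5) and 10.5% (9.37 to 11.7).

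The acidic residues accounted for most of the difference in count. Aspartate averaged 0.236 per TRA junction, below the 0.321 to 0.341 of the untitled libraries and the 0.282 of the mixed library. Glutamate averaged 0.196, below the 0.226 to 0.268 of the untitled libraries. Lysine averaged 0.680, against 0.625 and 0.663 in the dCLN libraries and at most 0.669 in the untitled ones. Arginine, at 0.517, lay inside their range of 0.464 to 0.533. Within TRAV subgroups of at least 30 clonotypes in each of the 3 libraries the mean TRA charge was above both dCLN values in 10 of 11. TRAV13 stood at 0.65 against 0.23 and 0.51, and TRAV4 at 0.28 against -0.05 and 0.15. TRAV16 was the exception, at 1.05 against 1.07 and 0.88. Within TRAJ genes of that size the charge was above both values in 16 of 23 and below both in 2.

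**Figure D2:**
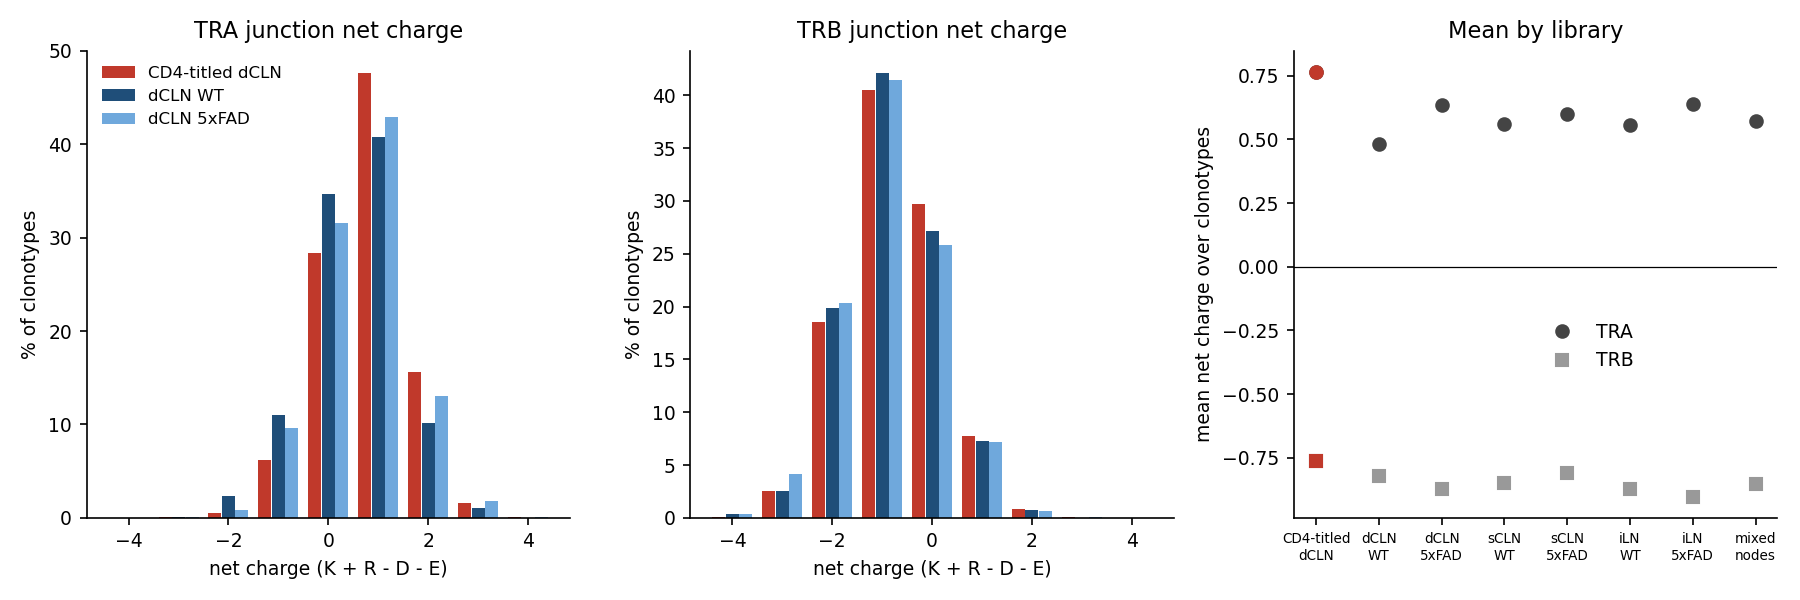
Left and middle: percent of clonotypes by net charge of the TRA and of the TRB junction (lysine plus arginine minus aspartate minus glutamate) in the 3 libraries. Right: mean net charge per library, circles for TRA and squares for TRB, with the CD4-titled library in red. The CD4-titled TRA mean of 0.765 lies above the 0.483 to 0.637 of the 6 untitled libraries and the 0.573 of the mixed library.

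The TRA charge difference was smaller over shared gene combinations. V-by-J combinations present in all 3 libraries were kept, each weighted by its mean share over the 3 libraries, with the same weights in each. The mean charge was then 0.690 in the CD4-titled library, 0.521 in dCLN WT and 0.656 in dCLN 5xFAD. The difference from dCLN WT went from 0.283 to 0.169, and that from dCLN 5xFAD from 0.131 to 0.033. The combinations used covered 80.6%, 94.4% and 86.3% of TRA clonotypes, and the parts of the dropped combinations and of the weighting in the smaller difference were not told apart. TRB junctions were negative in each library, with means of -0.762 (SD 0.965), -0.821 (SD 0.965) and -0.872 (SD 0.996). The untitled libraries ran from -0.903 to -0.810 and the mixed library stood at -0.853. Among contigs of at most 574 nucleotides the TRB charge difference from the mean of the dCLN libraries shrank from 0.0846 to 0.0338, while that of TRA was 0.207 and 0.215. Clonotypes negative in both chains made up 4.17%, against 8.70% and 6.97%, and outside the untitled range of 6.22% to 8.70%.

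TRB junctions held fewer added bases and fewer of them were long. Added bases, counted where a D segment was called, averaged 3.26 (SD 2.24 over 3524 clonotypes), against 3.48 (SD 2.36, 877) and 3.48 (SD 2.29, 2053). The untitled libraries ran from 3.26 to 3.56, so the CD4-titled mean was at their lower edge. Junctions with 6 or more added bases made up 14.6% (13.5 to 15.8), against 20.2% (17.6 to 23.0) and 18.1% (16.5 to 19.9). Junctions without any made up 8.91% (7.99 to 9.90), against 7.53% (5.87 to 9.48) and 7.94% (6.81 to 9.19), with overlapping intervals. The mean TRB junction length was 13.85 amino acids (SD 1.36), against 13.90 (SD 1.43) and 13.92 (SD 1.44), while junctions of 16 or more made up 8.97% (8.18 to 9.82), against 11.8% (9.98 to 13.7) and 11.8% (10.7 to 13.1). The untitled libraries held 10.2% to 13.3% of such long junctions and the mixed library 12.6%. Of 15 TRBV genes with at least 30 clonotypes in each library, the share of long junctions was below both dCLN values in 9 and above both in 1. TRBV1 showed it most plainly among the larger genes, at 10.6% of 320 clonotypes against 22.6% of 115 and 20.2% of 307. TRBV1 was chosen after its values were seen.

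TRA junctions differed little in length and added bases. They averaged 13.57 amino acids (SD 1.30), against 13.42 (SD 1.43) and 13.52 (SD 1.36). Added TRA bases averaged 2.66 (SD 2.08), between the 2.55 (SD 2.16) and 2.73 (SD 2.20) of the dCLN libraries. TRA junctions without added bases made up 17.1% (16.01 to 18.2), against 19.4% (17.2 to 21.8) and 18.4% (16.98 to 19.9), just below the untitled range of 17.7% to 21.1%.

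TRBV2, TRBV19 and TRAV9 were at least 2-fold higher in the CD4-titled library than in both dCLN libraries, among 88 V and J genes with a mean of at least 20 clonotypes, or 3.41% of them. TRBV29 and TRBV12-1 were at least 2-fold lower, or 2.27%, which makes 5.68% in either direction. Between the dCLN libraries themselves 1.14% of these genes differed 2-fold in either direction. That share rests on a single comparison, whereas a call needs 2-fold in the same direction against both dCLN libraries. TRAV9, a subgroup known for its skew to CD8 T cells, made up 7.95% (7.20 to 8.75) against 1.28% (0.717 to 2.10) and 1.03% (0.684 to 1.48). TRBV2 made up 7.93% against 1.71% and 1.54%, and TRBV19 made up 7.51% against 2.73% and 2.64%. In the mixed library TRAV9 made up 7.31%, TRBV2 5.37% and TRBV19 6.57%, all above the 6 untitled libraries as well. Higher use of these 3 genes was therefore not particular to the library with CD4 in its title.

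TRBV29 and TRBV12-1 were low in the CD4-titled library alone. TRBV29 made up 1.27% (0.975 to 1.63), against 4.77% (3.63 to 6.16) and 4.55% (3.80 to 5.40). The untitled libraries ran from 3.98% to 6.22% and the mixed library stood at 4.20%. TRBV12-1 made up 0.918%, against 2.73% and 1.94%, an untitled range of 1.68% to 2.73% and 3.64% in the mixed library. Trbv29 lies on chromosome 6 from 41271394 to 41271881 and Trbv12-1 from 41113550 to 41114067 in GRCm38, each with 2 exons. The TRBV12 genes, which respond to endogenous superantigens in some mouse strains, together made up 1.79%, against 4.35% and 3.30%. TRBV15, at 1.98%, and TRBV16, at 3.78%, which were listed with TRBV12 as superantigen-reactive, lay inside the untitled range. Other genes were not examined for superantigen reactivity.

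**Figure D3:**
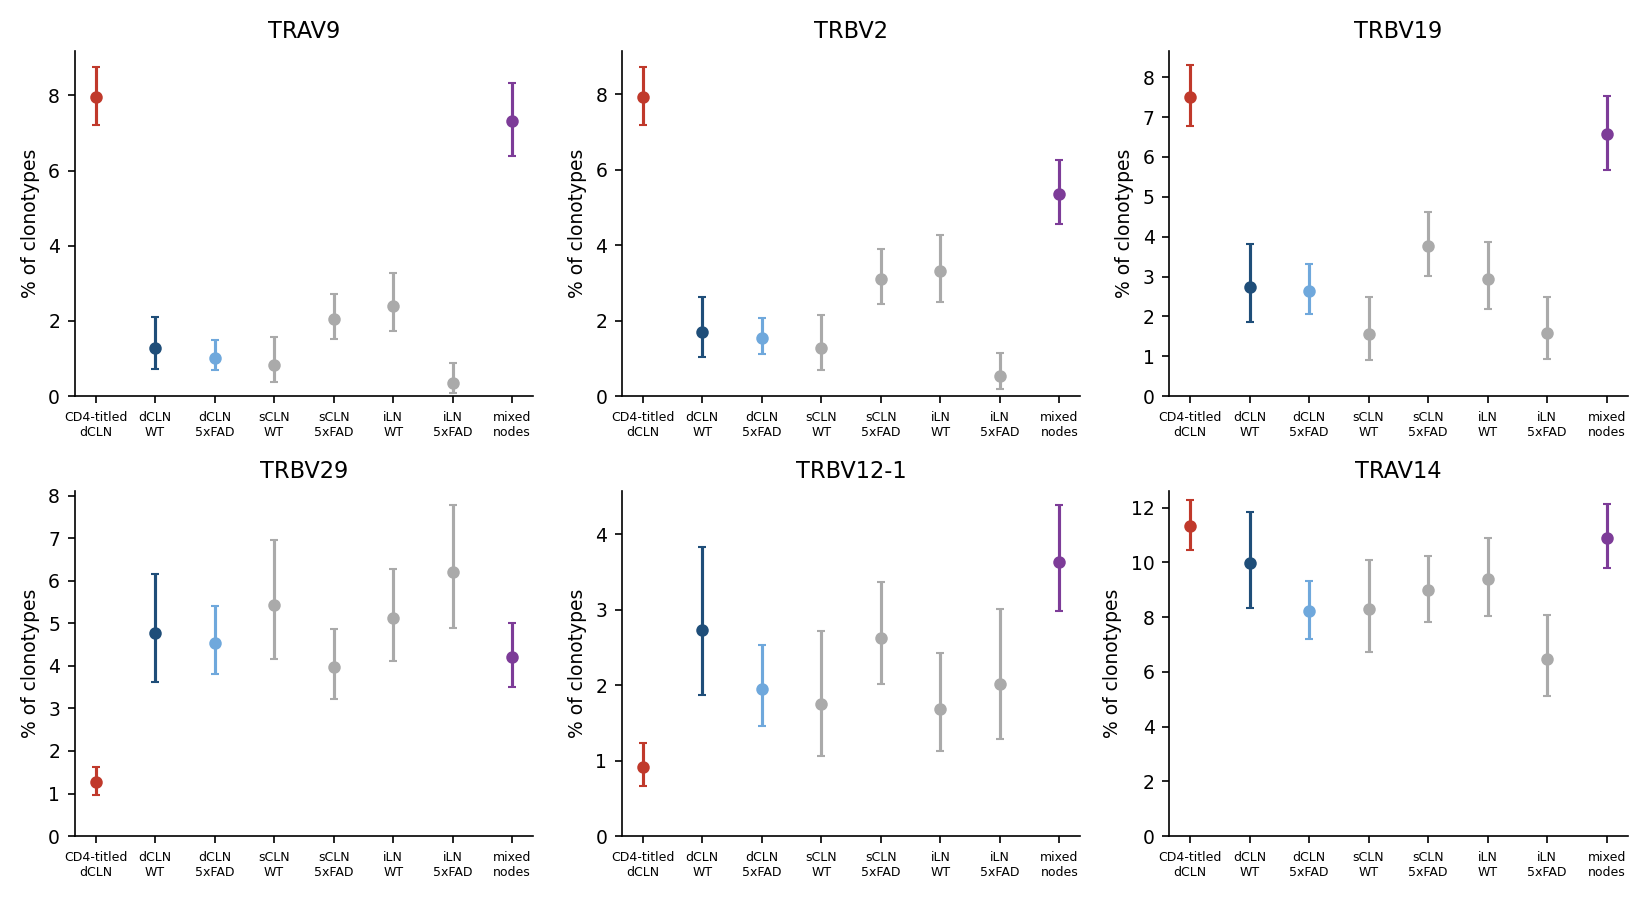
Percent of clonotypes that used each of 6 V genes, one panel per gene, in the CD4-titled, the 6 untitled and the mixed libraries; points are single libraries and error bars exact 95% counting intervals. TRAV9, TRBV2 and TRBV19 are high in the CD4-titled and the mixed library, whereas TRBV29 at 1.27% and TRBV12-1 at 0.918% are low in the CD4-titled library only.

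The subgroups known for skew to CD4 T cells did not set the CD4-titled library apart as a pair. TRAV14 made up 11.3% (10.4 to 12.3), against 9.97% (8.32 to 11.8) and 8.22% (7.21 to 9.31). That was above the untitled range of 6.48% to 9.97%, and the mixed library stood at 10.9%. TRAV4 made up 6.91%, between the 7.84% and 5.94% of the dCLN libraries. Chains of unconventional T cells were scarce. The invariant natural killer T chain, TRAV11 with TRAJ18 and 15 amino acids, had 0 cells of 4930, with an exact upper limit of 0.0748% (3 counts would be 0.0609%), against 3 of 1227 and 0 of 2742. It also had 0 cells in the superficial cervical and inguinal 5xFAD libraries, 6 of 1123 and 5 of 1688 in the WT ones, and 3 of 2873 in the mixed library. The mucosal-associated invariant T chain, TRAV1 with TRAJ33 and 12 amino acids, was found in 1 cell, 0.0203% (0.000514 to 0.113), against 5, or 0.407% (0.132 to 0.948), and 3, or 0.109% (0.0226 to 0.319). The untitled libraries ran from 0.0860% to 0.407%. In the mixed library it was found in 1 cell of 2873, 0.0348% (0.000881 to 0.194).

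J and D segments shifted modestly. TRBJ1 genes, the cluster closer to the V genes, made up 38.1% against 34.4% and 31.1%, above the untitled range of 31.1% to 36.6%, with the mixed library at 37.7%. TRBD1 made up 55.2% of called D segments, against 52.8% and 49.7%. TRBD2 lies downstream of the TRBJ1 cluster and is not expected to join it by deletion. It was called in 7.33% of TRBJ1 junctions with a D, against 5.43% and 7.65%, with untitled libraries from 5.43% to 10.1%. Among TRA chains, TRAJ18 to TRAJ34 made up 33.1%, against 38.2% and 35.6% and 39.7% in the mixed library. TRAJ2 to TRAJ17, the end of the cluster farthest from the V genes, made up 25.5% against 21.7% and 22.9%. TRAJ35 to TRAJ49, at 27.8%, and TRAJ50 and above, at 13.6%, lay inside the untitled ranges.

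Few V-J pairings stood apart from both dCLN libraries. Of 41 TRBV-TRBJ pairings with a mean of at least 20 clonotypes, 3 were at least 2-fold higher than in both dCLN libraries, or 7.32%, and 0 were lower. The same share, 7.32%, differed 2-fold between the dCLN libraries. That is a single comparison in either direction, a looser rule than a call against both, so the shares are not on equal terms. All 3 higher pairings had fewer than 20 clonotypes in each dCLN library and met the minimum only through their CD4-titled counts. The counts of higher and lower pairings therefore do not show a direction. TRBV13-2 with TRBJ1-2 was found in 51 clonotypes, 1.06%, against 3, 0.256%, and 12, 0.440%. Its share lay inside the untitled range of 0.256% to 1.08%, and the mixed library stood at 0.918%. TRBV19 with TRBJ2-7 was found in 48, 1.00%, against 5 and 9, and TRBV2 with TRBJ2-7 in 63, 1.31%, against 6 and 13. Both shares lay above the highest untitled values, 0.613% and 0.903%, with the mixed library at 0.988% and 1.06%. Measured against the product of the single gene shares, 0 of the 41 pairings had a ratio at least 2-fold apart from both dCLN libraries. TRBV2 with TRBJ2-7 had the largest shift shared by both comparisons, and it was downward. Its observed over expected log2 ratio was -0.09, against 0.86 and 0.72. TRBV13-2 with TRBJ1-2 shifted upward, at 0.40 against -0.87 and -0.12. TRBV31 with TRBJ1-1, TRBV3 with TRBJ2-5 and TRBV13-1 with TRBJ2-5 came next, at -0.28 against 0.16 and 0.34, at 0.05 against 0.48 and 0.57, and at 0.35 against -0.52 and -0.04. With chains of at least 2 UMIs only 1 of the 3 pairings was still called, TRBV2 with TRBJ2-7, and with the gene names of the deposited 10x columns TRBV13-2 with TRBJ1-2 was not called.

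Among pairings of TRAV subgroups with the 4 TRAJ blocks, 3 of 44 were higher, or 6.82%, and 2 were lower, or 4.55%. Between the dCLN libraries 9.09% differed 2-fold, again by the looser rule of a single comparison. All 3 higher pairings were those of TRAV9, at 2.61% with TRAJ2 to TRAJ17 against 0.341% and 0.257%, at 3.01% with TRAJ18 to TRAJ34 against 0.341% and 0.440%, and at 1.67% with TRAJ35 to TRAJ49 against 0.512% and 0.183%. The lower ones were TRAV8 with TRAJ18 to TRAJ34, at 0.856% against 2.73% and 2.57%, and TRAV1 with TRAJ18 to TRAJ34, at 0.417% against 1.02% and 1.03%. In the mixed library the TRAV9 pairings stood at 1.69%, 3.39% and 1.73%, that of TRAV8 at 1.31% and that of TRAV1 at 0.282%. Against the product of single shares 0 of 44 were 2-fold apart. TRAV5 with TRAJ50 and above had the largest shared shift, with a log2 ratio of 0.22 against -1.09 and -0.40. TRAV10 and TRAV3 with TRAJ18 to TRAJ34 shifted upward by at least 0.38 and 0.34, and TRAV12 shifted downward by at least 0.28 with TRAJ50 and above and upward by at least 0.26 with TRAJ35 to TRAJ49.

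Of 35 pairings between TRBV genes and TRAV subgroups, 2 were at least 2-fold higher, or 5.71%, and 0 were lower. By the looser rule of a single comparison, 17.1% differed 2-fold between the dCLN libraries. TRBV2 with TRAV6 was found in 66 clonotypes, against 1 and 11. TRBV2 with TRAV7 was found in 53, against 3 and 7. Against the product of single shares 0 of 35 were 2-fold apart. The largest shared shifts, of 0.29 to 0.43 on the log2 scale for the nearer dCLN library, were all upward and belonged to TRBV5 with TRAV13, TRBV13-3 with TRAV13, TRAV6 and TRAV7, and TRBV1 with TRAV14. The 35 pairings tested, of 357 seen, covered 39.9% of the CD4-titled clonotypes.

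The contigs of the CD4-titled library were longer. The median length of 548 nucleotides compared with 531 for dCLN WT and 530 for dCLN 5xFAD, and 16.05% exceeded 600 nucleotides, against 3.84% and 4.09%. In the mixed library 14.7% did. The extra length lay before the V region, with medians of 108 bases for TRB against 87 and 87, and of 125 for TRA against 115 and 114. The stretch after the J segment had a median of 98 bases for TRB and 87 for TRA in all 3. For the V genes that start far upstream the contigs also reached farther. TRBV19 contigs had a median of 260 bases before the V region, against 206 and 220, and 95.3% of them exceeded 600 nucleotides, against 62.7% and 75.3%. TRBV2 contigs had 142 against 125 and 125, and 46.6% against 12.9% and 13.2% were that long. TRBV29 contigs, at 75 bases against 75 and 74, never exceeded 600 nucleotides.

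Genes with more sequence before the V region tended to take a larger share of the CD4-titled library. Across 21 TRBV genes Spearman's rho between this length and the log2 ratio of chain share was 0.52, and across 17 TRAV subgroups it was 0.43. These genes share the same libraries and are no independent replicates, so the values are descriptions. TRAV17, at 189 bases, made up 1.09% of TRA chains against 0.13% and 0.25%. TRAV9 had a median of 115 bases in the CD4-titled and both dCLN libraries, so by this median it did not follow the length. In the mixed library, where TRAV9 was also high, its median was 234 bases. The share of TRAV9 contigs longer than 600 nucleotides was 37.9% for the CD4-titled library and 70.3% for the mixed one. The dCLN values were 35.3% (WT) and 26.5% (5xFAD). The median of 115 bases does not show these long contigs, and their part in TRAV9 use was not tested. Among contigs of at most 574 nucleotides, the 90th percentile in dCLN WT, TRAV9, TRBV2, TRBV29 and TRBV12-1 were still called. TRBV19 was not, but the limit itself removes at least the 95.3% of its CD4-titled contigs that exceed 600 nucleotides, so its use cannot be judged there. That limit removes whole chains, so the paired share then fell to 45.4% in the CD4-titled library, against 45.7% and 45.0%. TRBV-TRBJ and TRBV-TRAV pairings past 2-fold fell to 0 of 23 and 0 of 19 tested.

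**Figure D4:**
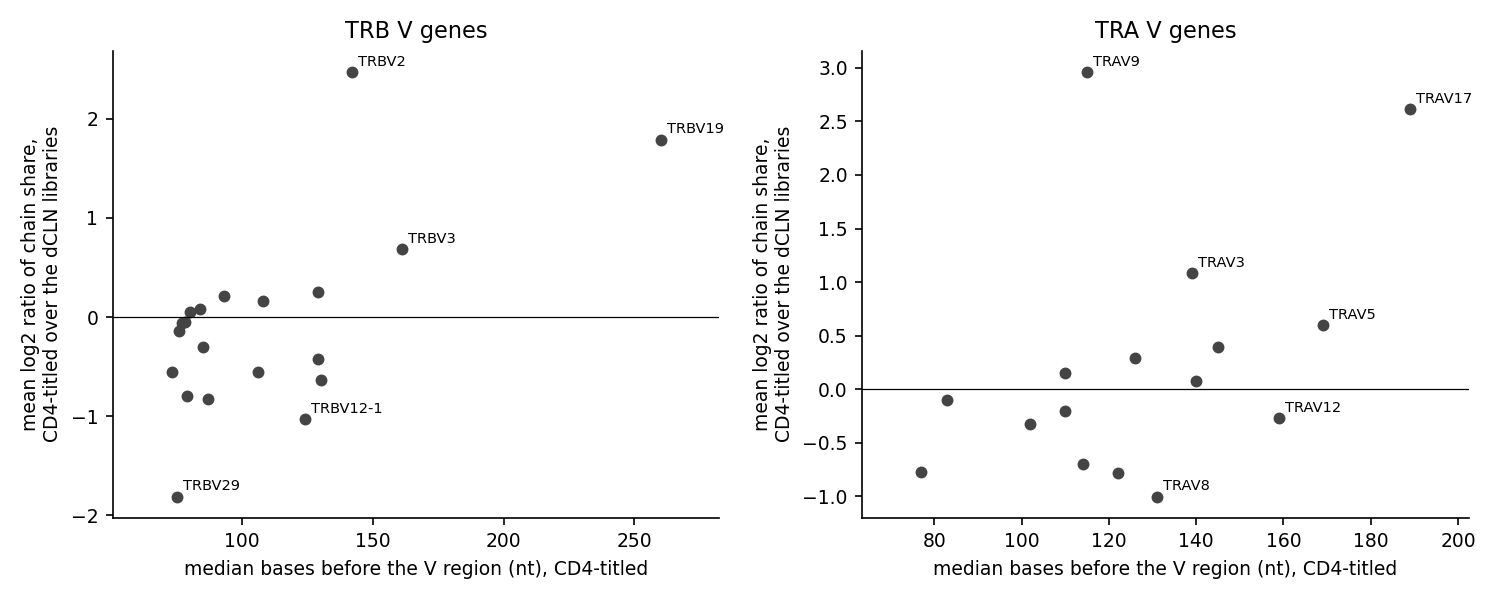
Mean log2 ratio of a V gene's share of chains, CD4-titled over the dCLN libraries, against the median number of bases before the V region in CD4-titled contigs, for TRB (left) and TRA (right) V genes; each point is a V gene or TRAV subgroup. TRBV2 and TRBV19 lie high at 142 and 260 bases, and TRAV9 lies high at 115.

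The allele set differed between the libraries. The CD4-titled table named 208 V alleles, compared with 176 for dCLN WT and 117 for dCLN 5xFAD, of which 165 and 104 were in common. V regions found in both the CD4-titled and a dCLN library carried the same TRBV gene or TRAV subgroup in every case, 130 of 130 TRA and 21 of 21 TRB sequences for dCLN WT and 80 of 80 and 21 of 21 for dCLN 5xFAD. V regions absent from the CD4-titled library could not be checked in this way. The deposited 10x columns gave the same V gene for 85.5% of TRB chains in the CD4-titled library, 85.5% in dCLN WT and 87.1% in dCLN 5xFAD. For TRA the values were 99.97%, 100% and 100%. The calls of the 5 genes past 2-fold were the same with the gene names of these columns. TRA V regions of the CD4-titled library matched those of both genotypes. Of its TRA clonotypes 69.5% had a V region seen in both dCLN libraries, 19.4% one seen in dCLN WT but not in dCLN 5xFAD, 8.20% the reverse and 2.96% neither. TRAV3 went against this order, with 63.3% of 207 clonotypes seen in dCLN 5xFAD but not in dCLN WT.

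TRB V regions showed a plainer difference. A second V-region sequence of a TRBV gene was counted where it had at least 3 chains in each dCLN library or at least 3 in the CD4-titled one. There were 5, each of another gene, and 0 of them came from the CD4-titled library. Their presence in the dCLN libraries is part of that rule, while the other 4 untitled libraries and the mixed one were not used in it. The second sequences made up 96 of 571 chains of these genes in dCLN WT, 16.8% (13.8 to 20.1), and 241 of 1217 in dCLN 5xFAD, 19.8% (17.6 to 22.2). They made up 15.7% to 19.8% in the 6 untitled libraries. In the CD4-titled library they made up 0 of 2127, which leaves at most 0.173% by the exact interval, and in the mixed library 0 of 1033. For TRBV5 the sequences below cover bases 139 to 162, counted from 1 at the first base of the V region, with the differing bases in capitals. Trbv5 lies on chromosome 6 from 41062332 to 41062803 in GRCm38, with 2 exons.
TRBV5, sequence of the CD4-titled library: ctctacaAtCttaaacaGttgatt
TRBV5, second sequence of the dCLN libraries: ctctacaGtGttaaacaAttgatt

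The TRBV5 sequences differed by A146G, C148G, G156A, A229G and C245T, with the base of the CD4-titled library first. The second sequence made up 29 of 210 TRBV5 chains in dCLN WT, 13.8% (9.45 to 19.2), 78 of 445 in dCLN 5xFAD, 17.5% (14.1 to 21.4), and 0 of 704 in the CD4-titled library. TRBV19 had T69C and A91T, and its second sequence made up 23 of 51 chains, 45.1% (31.1 to 59.7), and 33 of 97, 34.02% (24.7 to 44.3), against 0 of 531. TRBV26 had G91T and C144T, at 15 of 91 and 58 of 243, and TRBV20 had T96C and A127G, at 4 of 85 and 14 of 169. TRBV4 differed at 9 bases, at 25 of 134 and 58 of 263. The second sequences were present in each of the 6 untitled libraries of both genotypes and in neither the CD4-titled nor the mixed library. The CD4-titled library therefore did not hold the same set of TRB V-region sequences as the dCLN libraries. Differences between these libraries, in TRBV use and in the other measures above, cannot be told apart from differences between the animals or strains sampled.

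**Figure D5:**
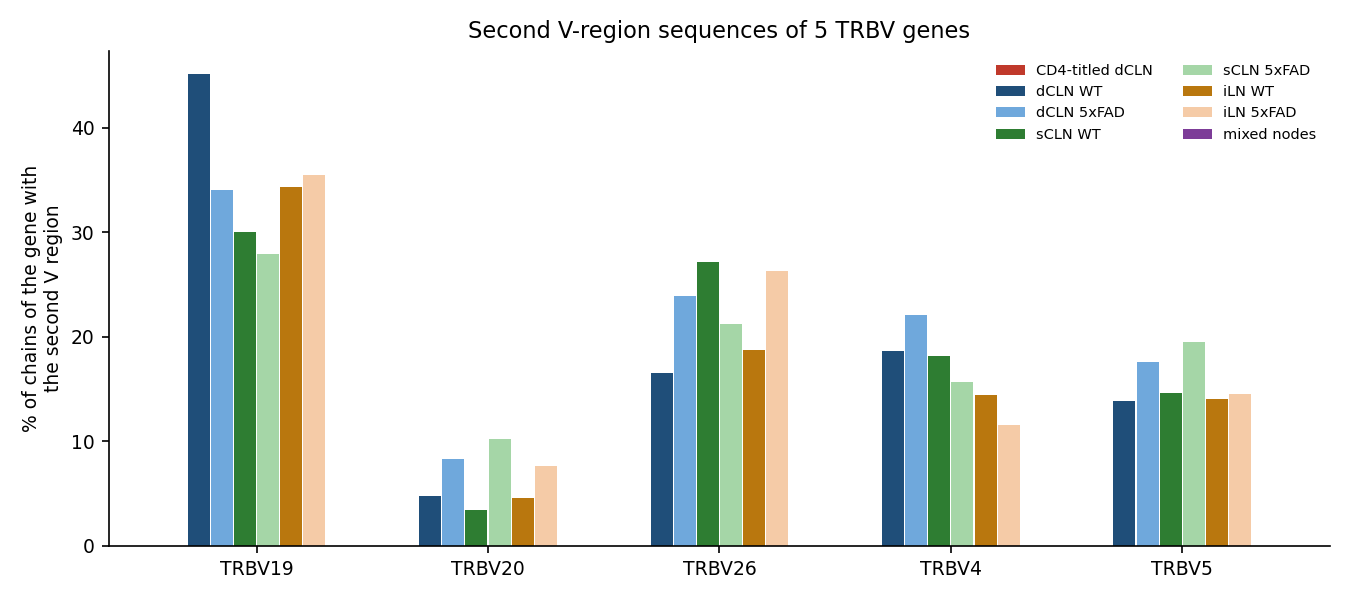
Percent of chains of each of 5 TRBV genes that carried the second V-region sequence, bars for 8 libraries. The CD4-titled and mixed libraries have no visible bar because their values are 0, while dCLN WT stands at 45.1% for TRBV19 and 13.8% for TRBV5.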

How the data were processed

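Receptor contigs of lymph node T cells had been deposited as 1 table per sample, with a line for each contig. As tools, Cell Ranger 6.0.1 and Seurat 4.1.0 are named in the submitters' processing notes, as is the mm10 build. The columns are those of an IgBLAST call, per the file headers, and the IgBLAST version and germline sets are not given in the sources used here. UMI and read counts were deposited unnormalized for every contig, per the file headers. V identity was deposited as a fraction and served only as a check of the tables. Lengths and positions are in nucleotides, per the file headers.

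Total counts in the CD4-titled, dCLN WT and dCLN 5xFAD libraries were 87415, 28460 and 75569 UMIs. Productive contigs were kept, and a cell was a barcode with 1 TRB and 1 or 2 TRA chains, taking the TRA chain of more UMIs. Barcodes with 2 TRB chains were set aside. TRAV genes were summed by subgroup, which joins duplicated copies. The bases called as added by the authors' caller were used as deposited. Gene and pairing shares were compared where the mean over the 3 libraries was at least 20 clonotypes, and named where at least 2-fold apart from both dCLN libraries, along with up to 5 pairings of largest shared shift in observed over expected ratio, clones of 4 or more cells and the largest of each dCLN library (the 16 clones of dCLN 5xFAD, all of 2 cells, are given as a count). A count of 0 was taken at a floor of 3 counts. Lists covered TRAV4, TRAV14 and TRAV9, TRBV12, TRBV15 and TRBV16, D and J groups and invariant chains. The members and lists were chosen with earlier results of these data known. With 1 library a group no test was run. Gene positions came from GENCODE M21 (GRCm38). Python 3.11.15, pandas 2.3.3 and SciPy 1.17.1 were used. Alternatives covered UMI and contig length limits, the counted unit, gene names, thresholds and leaving out each dCLN library.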

Additional observations from a re-analysis of the deposited data

Results flagged for a closer look

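The CD4-titled library listed 37 contigs as nonproductive, data outside the comparisons above, and all 37 used TRAJ24. Each had a junction length that is a multiple of 3 and no stop codon. The library held 38 TRAJ24 contigs, all called with TRAJ24*02, alone or beside TRAJ24*01, and 1 was listed as productive. In dCLN WT and dCLN 5xFAD all 9 and 29 TRAJ24 contigs were called TRAJ24*01 and listed as productive. The same held in the remaining untitled libraries. The mixed library was like the CD4-titled one. Of its 33 TRAJ24 contigs, 31 were listed as nonproductive, with a junction length that is a multiple of 3 and no stop codon. All of its TRAJ24 calls named TRAJ24*02, alone or beside TRAJ24*01. As a share of TRA contigs TRAJ24 made up 0.624% in the CD4-titled library (0.442 to 0.856), 0.580% in dCLN WT (0.265 to 1.10) and 0.791% in dCLN 5xFAD (0.531 to 1.13). The 3 intervals overlap.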

How the results depend on the processing

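Of 137 recomputed values, 108 stayed within counting error or within 1.5 times the main count. All values below are differences from the mean of the dCLN libraries, or counts of features past 2-fold. With at least 2 UMIs per chain the pairing difference was 11.0 points, and 1 TRBV-TRBJ and 1 TRBV-TRAV pairing remained. With contigs of at most 574 nucleotides the pairing difference was 0.0149 points and the TRB charge difference 0.0338, and 0 TRBV-TRBJ, 3 TRAV-TRAJ block and 0 TRBV-TRAV pairings were called, from fewer chains. At equal V-by-J usage the TRA charge difference was 0.101. Without thinning the clone difference was -0.177 points. With cells in place of clonotypes 5 TRBV-TRBJ pairings were called. At 1.5-fold 12 genes and 9, 13 and 9 pairings (TRBV-TRBJ, TRAV-TRAJ block, TRBV-TRAV) were called, and with a mean of 10 clonotypes 8 genes and 18 TRBV-TRBJ and 21 TRBV-TRAV pairings. Leaving out dCLN 5xFAD or dCLN WT put the clone difference at -6.95 points and, at the 2742 cells of dCLN 5xFAD, at 2.05 points, a reversal, and the TRA charge difference at 0.283 and 0.131. Genes then numbered 9 to 10, TRBV-TRBJ pairings 12 to 18, TRAV-TRAJ block pairings 7 to 9 and TRBV-TRAV pairings 10 to 17, since a call then needs 1 library only. The 2 added alternatives, the 10x gene names and the in-frame TRAJ24 chains, were chosen after seeing the data and moved 0 of 14 values past those limits. No paired analysis was possible because each group was 1 library. Clones of the dCLN libraries rest on few cells, and depth limits pairings of under 20 clonotypes.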
